A study of Homo sapiens with 16 samples.

Results

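Hydroxyurea (HU) was given to U2OS cells with and without an siRNA against SETD2, and the question here was whether the transcript response to HU differed between them. The 4 groups compared were siSETD2 cells in 2 mM HU, untreated siSETD2 cells, siNT cells in 2 mM HU and untreated siNT cells, where siNT is a control siRNA with no target. Cells were collected 48 h after transfection, HU was present for the last 4 h, and each group held 2 libraries, labelled R1 and R2. These 8 libraries are part of a series of 16, the other 8 having received the ATR inhibitor VE-822 at 2 µM alone or with HU. U2OS is an established human osteosarcoma line with wild-type p53, so all groups share that background, and an siRNA lowers its target without removing it. The labels do not say whether R1 and R2 were separate cultures, so the p-values speak of the spread among libraries alone, and that spread may be technical. Expression was deposited as FPKM, a fragment count per length of exon and per depth of library. A response is the value in HU minus the value in untreated cells on the log2(FPKM + 1) scale, and the difference of responses is the siSETD2 response minus the siNT response, taken within R1 and within R2. Values given as pairs are R1 first and R2 second. Of the 58735 genes in the table, the 13088 whose FPKM averaged 1 or more across the 16 libraries were included, all of them.

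SETD2 is the methyltransferase that places trimethylation on lysine 36 of histone H3 over transcribed gene bodies. HU blocks ribonucleotide reductase, so deoxynucleotides run short, replication forks stall and the ATR checkpoint holds cells in S phase. E2F transcription factors drive the genes of S phase entry and DNA synthesis and are held back by RB proteins and the repressors E2F7 and E2F8, while p53 drives genes of arrest and repair and mitotic genes are read late in the cycle.

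The starts of 5 genes that recur below are given from RefSeq (GRCh38.p14), as 300 bases on the strand of the gene, to show the letters that E2F and mitotic regulators read. CDC25A (chr3:48188368-48188667), GINS2 (chr16:85688905-85689204), PCNA (chr20:5126573-5126872) and E2F1 (chr20:33686336-33686635), all on the minus strand, are S phase genes, and CENPA (chr2:26785806-26786105, plus strand) is a mitotic gene. Capitals mark matches, on either strand, to the E2F letters TTTNNCGC or TTNNCGCC, which can overlap each other, and to the CHR element TTTGAA of mitotic genes.
CDC25A: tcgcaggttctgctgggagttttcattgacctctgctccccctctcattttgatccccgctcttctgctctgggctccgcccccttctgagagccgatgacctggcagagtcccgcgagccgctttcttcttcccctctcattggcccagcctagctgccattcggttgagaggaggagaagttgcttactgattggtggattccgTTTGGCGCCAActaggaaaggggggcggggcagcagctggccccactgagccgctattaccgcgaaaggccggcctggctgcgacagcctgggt
GINS2: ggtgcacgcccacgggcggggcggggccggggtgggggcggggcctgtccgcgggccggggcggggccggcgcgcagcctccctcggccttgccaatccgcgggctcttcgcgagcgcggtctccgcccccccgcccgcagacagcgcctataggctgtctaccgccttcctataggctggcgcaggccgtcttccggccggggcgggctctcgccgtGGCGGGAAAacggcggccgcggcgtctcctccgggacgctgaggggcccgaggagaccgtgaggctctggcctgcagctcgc
PCNA: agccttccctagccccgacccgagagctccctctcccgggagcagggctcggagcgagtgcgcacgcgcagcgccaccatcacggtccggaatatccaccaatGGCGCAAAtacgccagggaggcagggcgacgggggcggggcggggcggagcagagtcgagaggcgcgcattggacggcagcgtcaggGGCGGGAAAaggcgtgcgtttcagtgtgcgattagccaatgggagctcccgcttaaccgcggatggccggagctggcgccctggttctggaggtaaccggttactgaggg
E2F1: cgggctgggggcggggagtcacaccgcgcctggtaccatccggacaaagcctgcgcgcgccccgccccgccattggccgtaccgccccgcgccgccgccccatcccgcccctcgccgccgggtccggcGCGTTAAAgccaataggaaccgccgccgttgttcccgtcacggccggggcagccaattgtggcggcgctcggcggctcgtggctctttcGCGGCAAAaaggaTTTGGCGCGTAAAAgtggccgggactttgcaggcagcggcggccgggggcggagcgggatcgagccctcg
CENPA: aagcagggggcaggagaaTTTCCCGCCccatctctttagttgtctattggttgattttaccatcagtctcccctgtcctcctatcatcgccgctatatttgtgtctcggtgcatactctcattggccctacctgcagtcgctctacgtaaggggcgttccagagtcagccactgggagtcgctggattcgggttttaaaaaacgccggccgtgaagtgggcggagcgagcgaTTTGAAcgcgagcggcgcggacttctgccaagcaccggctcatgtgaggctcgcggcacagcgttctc
TTTNNCGC occurred in 28 of 61 matched promoters of the E2F G1/S list (45.9%), in 7 of 46 of the G2/M list (15.2%), in 0 of 26 of the extracellular matrix list and in 6.89% of all 35116 promoters. TTTGAA occurred in 30 of 46 G2/M promoters (65.2%), in 2 of 61 E2F promoters (3.28%) and in 15.2% of all promoters. The other E2F form, TTNNCGCC, occurred in 30 of 61 E2F promoters (49.2%) and 12 of 46 G2/M promoters (26.1%). It occurred in 3 of 26 matrix promoters (11.5%) and in 11.1% of all promoters. These matches describe letters only.

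SETD2 transcript stood at 2.22 and 4.13 FPKM in HU and 2.01 and 4.17 FPKM untreated in siSETD2 cells, against 8.12 and 8.09 FPKM in HU and 8.4 and 8.06 FPKM untreated in siNT cells, so all 4 siSETD2 libraries lay below all 4 siNT libraries, and both R1 libraries below both R2 libraries in siSETD2 cells. The 16 libraries held 22310806 to 31101932 fragments and 26548 to 29191 detected genes. Of the 8 mesenchymal and osteoblast markers, VIM (77.3 to 167 FPKM), SPARC, CDH2, COL1A1 and THY1 stayed above 7 FPKM, RUNX2 had a median of 1.52 FPKM, and CDH11 (0.443 FPKM) and ALPL (0.135 FPKM) had medians below 1. Of the 8 epithelial markers, CDH1, KRT19, ESRP1 and GRHL2 stayed at or below 0.189 FPKM, while KRT18 (34.1 to 99.4 FPKM), KRT8 (11.5 to 26.2 FPKM), CLDN4 (2.44 to 9.61 FPKM) and EPCAM (1.52 to 2.18 FPKM) were detected in every library. Of the 9 blood cell markers only CD3D passed 1 FPKM. Untreated siSETD2 R1 stood apart from the other libraries. On the first principal component of all 16 (46.1% of the variance) it lay at -33.3, against -20.5 to -28.5 for the other R1 libraries not given VE-822 alone. Across 10665 protein-coding genes its deviation from the mean of the 8 libraries correlated with exon length at a Spearman rho of -0.413, against -0.0439 to 0.238 in the other 7. Every R1 response of siSETD2 cells rests on that library, and R2 responses and differences do not use it. Some counts from fits that leave it out are given below, and why it stands apart was not tested.

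HU responses of siSETD2 and siNT cells went together across genes in R2 and hardly in R1. Across the 13088 genes the R2 response in siSETD2 cells correlated with that in siNT cells at r = 0.622, and in R1 at 0.0510. The siNT responses of R1 and R2 correlated at 0.328, and the siSETD2 responses at 0.0556. These correlations are over genes that share libraries and depth, and describe these libraries only. The difference of responses had an SD over genes of 0.411 in R1 and 0.253 in R2, and the differences in R1 and R2 correlated at -0.0061. When protein-coding genes were split into 5 length classes, the class with the shortest exons (207 to 2905 bases) stood apart in 1 series. There the median response in siSETD2 R1 was -0.26, against 0.11 in siSETD2 R2, 0.057 in siNT R1 and 0.076 in siNT R2. In the class with the longest exons (8137 to 46064 bases) it was 0.14 in siSETD2 R1, against -0.01 in siSETD2 R2, -0.0065 in siNT R1 and 0.0018 in siNT R2. The difference of responses thus climbed with exon length in R1 (rho 0.476) and not in R2 (rho -0.0914).

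**Figure D1:**
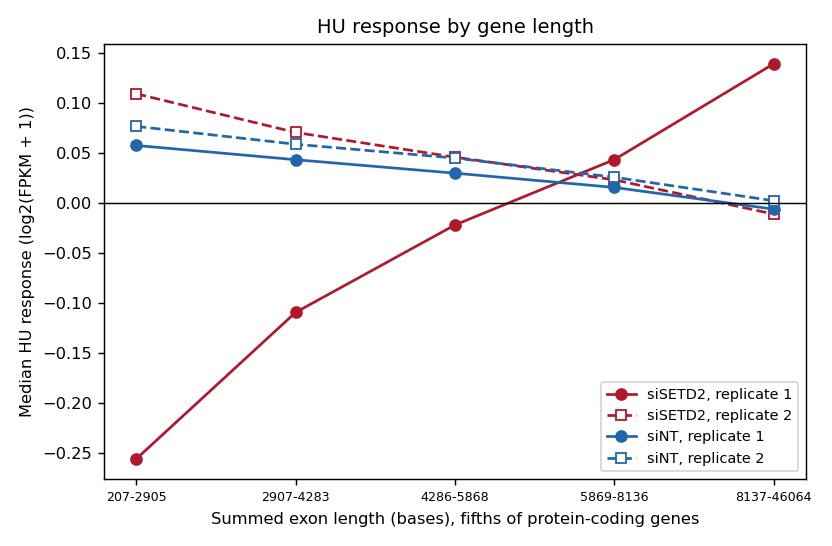
Median HU response on the log2(FPKM + 1) scale (y axis) for 5 classes of 10665 protein-coding genes by summed exon length in bases (x axis), with siSETD2 in red and siNT in blue, R1 filled and R2 open. siSETD2 R1 runs up from -0.26 in the shortest class to 0.14 in the longest, and the other 3 series run slightly the other way.

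No gene's HU response was found to differ between siSETD2 and siNT cells. With limma and Benjamini-Hochberg adjustment, 0 of 13088 genes (0.0%) passed 0.05 for the difference of responses, and 97 had an unadjusted p below 0.05. With the replicate number as a block, since R1 and R2 deviated together across groups, the count was again 0 (0.0%), with 255 below an unadjusted 0.05, and limma-voom on recovered fragments gave 0 with 55. The lowest adjusted p with the block, 0.0890, belonged to RNU7-75P. The median SE of the difference was 0.256 over genes, and 0.184 with the block. Differences of that size were not detectable, and larger ones could be missed too. In data made to test the scripts, 29% of 200 genes given a log2 difference of 1 were recovered. At a difference of 2 it was 82%, and at 4 it was 99%. For the average of both siRNAs, HU changed 14 genes (0.107%), 5 higher (0.0382%) and 9 lower (0.0688%), and with the block 209 (1.6%), 111 higher (0.848%) and 98 lower (0.749%). Of the 14, all 5 higher and only 4 of the 9 lower were protein-coding. These 4, CENPA, PSRC1, PIF1 and SLC25A27, are the only lower ones described below. With the block 98 of the 111 higher and 62 of the 98 lower were protein-coding. Scaled to library totals, and with voom, the 14 became 8, each time 1 higher and 7 lower. In siSETD2 cells alone HU changed 0 genes by limma (578 below an unadjusted 0.05) and 0 by voom (546), and 26 with the block (0.199%), 10 higher (0.0764%) and 16 lower (0.122%). In siNT cells alone it changed 0 by limma (427 below an unadjusted 0.05) and 0 by voom (391), and 22 with the block (0.168%), 7 higher (0.0535%) and 15 lower (0.115%). The 12 genes called in both were CENPA, PSRC1, RSPO3, DHRS2, H1F0, SUSD6, TNFRSF9, AC090774.2, AC129926.2, AC233702.1, CCDC144NL-AS1 and CYP4F32P. They were 46.2% of the siSETD2 calls and 54.5% of the siNT calls. None was shared with the block over all 8 groups or in the 8 libraries alone, where siNT calls numbered 0, and 32 were shared with the block and without untreated siSETD2 R1. Of the 209 averaged calls, 13 had an unadjusted block p below 0.05 for the difference of responses, a larger share than the 255 of all 13088 genes. Both tests use the same variance estimate of a gene, so picking by the averaged p favours genes of low variance. Nothing is read from that share. The median difference of the 209 was 0.02 (5th to 95th percentile -0.34 to 0.34).

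Mitotic genes were lower in HU with either siRNA. CENPA, the histone H3 variant of centromeres, stood at 7.25 and 6.49 FPKM in HU and 12.5 and 13.5 FPKM untreated in siSETD2 cells, against 6.12 and 6.43 FPKM in HU and 11.2 and 13.7 FPKM untreated in siNT cells. Both HU groups lay below both untreated groups with no overlap. CENPA fell in HU averaged over siRNAs, by limma with Benjamini-Hochberg adjustment, with a response of -0.85 (SE 0.10, adjusted p = 0.0155). Scaled to library totals its adjusted p was 0.0569. Its separate responses were -0.70 and -0.96 in siSETD2 cells and -0.77 and -0.99 in siNT cells. The difference of responses was 0.05 (SE 0.18 with the block), with a 95% interval of -0.35 to 0.45. PSRC1, a microtubule-binding protein of the spindle, stood at 6.2 and 7.69 FPKM in HU and 16.5 and 26.4 FPKM untreated in siSETD2 cells, against 5.77 and 6.81 FPKM in HU and 13.9 and 27.1 FPKM untreated in siNT cells, again with no overlap of HU and untreated libraries. PSRC1 fell, with an averaged response of -1.48 (SE 0.19, adjusted p = 0.0225), and its difference of responses was 0.02 (SE 0.30 with the block). PIF1, a DNA helicase with a cell-cycle dependent level, stood at 12.3 and 13.7 FPKM in HU and 24.7 and 46.1 FPKM untreated in siSETD2 cells, against 9.34 and 12.4 FPKM in HU and 29.1 and 41.1 FPKM untreated in siNT cells. PIF1 fell, with an averaged response of -1.45 (SE 0.21, adjusted p = 0.0313), and its differences in R1 and R2 were 0.60 and -0.03. PLK1, the kinase of mitotic entry, stood at 11.9 and 14.7 FPKM in HU and 18.2 and 23.7 FPKM untreated in siSETD2 cells, against 12.9 and 16.2 FPKM in HU and 21 and 24.2 FPKM untreated in siNT cells. Its averaged response of -0.61 (SE 0.10, adjusted p = 0.0147 with the block) was called only with the block, and its difference was -0.0088 (SE 0.19 with the block).

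Over the 53 tested genes of the G2/M list (of 54), the median response was -0.29 and -0.48 in siSETD2 cells and -0.31 and -0.47 in siNT cells. With HU averaged over siRNAs, 3 fell, against 0.0688% of all genes, and with the block 17 fell and 0 rose, against 0.749% lower. The 3 were CENPA, PSRC1 and PIF1, which earlier results of these data had already picked as HU responders. Their calls are thus no separate support for the list. AURKA, AURKB, CDC20, UBE2C, KIFC1, HJURP and TACC3 were among the 17. The block over all 8 groups gave 8 lower and the block in the 8 libraries alone 4, and without untreated siSETD2 R1 the block gave 27. UBE2C, the ubiquitin-conjugating enzyme that works with the anaphase-promoting complex, stood at 35.5 and 33.4 FPKM in HU and 65.3 and 53.2 FPKM untreated in siSETD2 cells, against 30.7 and 33.6 FPKM in HU and 48.3 and 51 FPKM untreated in siNT cells. Its HU libraries lay below all its untreated libraries. The difference of responses had medians of 0.04 and -0.01 in R1 and R2, with 11 above 0 and 14 below 0 in both replicates, against 23.8% and 25.9% of all genes. The kinase AURKB had differences of -0.51 and -0.15 and the topoisomerase TOP2A of 0.39 and 0.09, and neither passed. In bulk RNA, fewer cells in mitosis and less transcript per cell cannot be told apart.

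**Figure D2:**
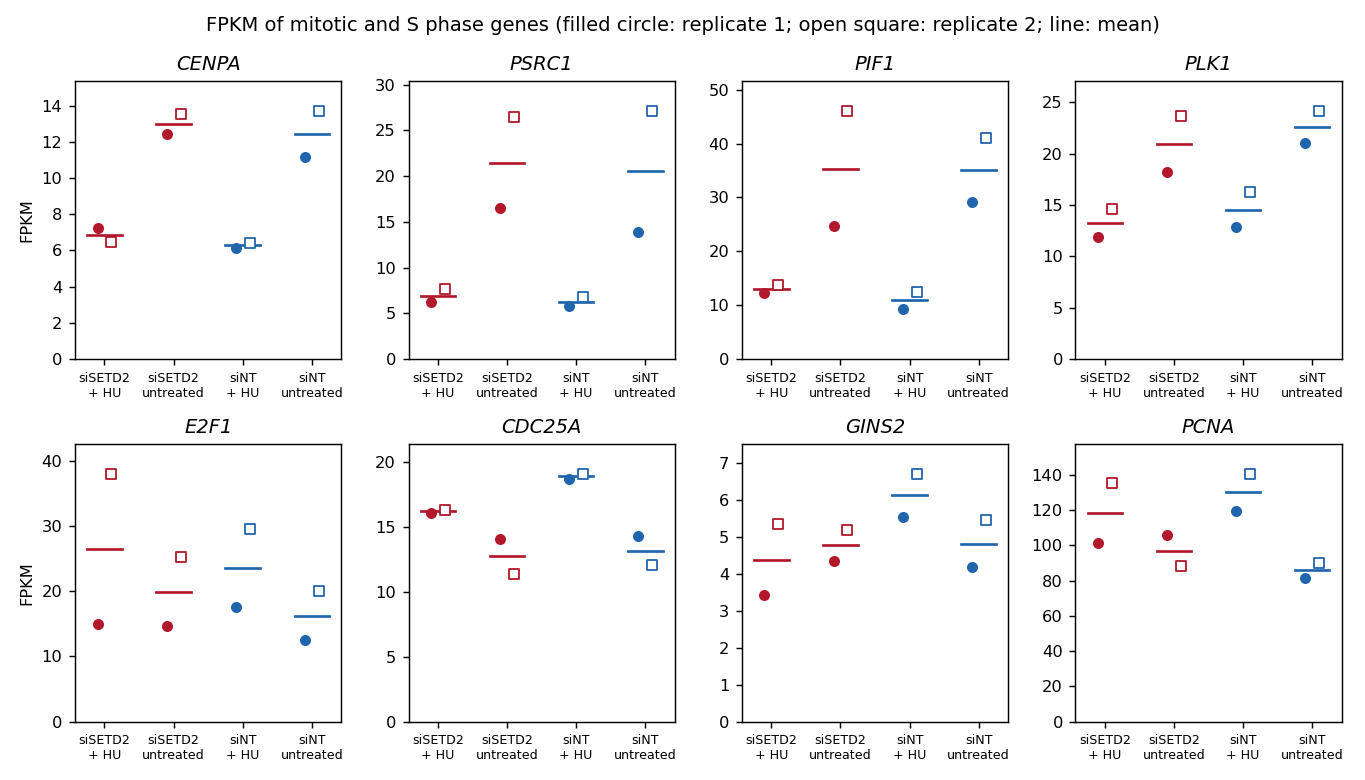
FPKM (y axis, from 0) of 4 mitotic and 4 S phase genes in siSETD2 cells in HU, untreated siSETD2 cells, siNT cells in HU and untreated siNT cells (x axis), with R1 as filled circles, R2 as open squares and lines at group means. CENPA, PSRC1, PIF1 and PLK1 are lower in HU with either siRNA, while PCNA and E2F1 in R1 differ little between HU and untreated siSETD2 cells.

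Of the p53 targets, 10 rose in HU averaged over siRNAs with the replicate block. The list of 30 tested genes (of 32) had median responses of 0.11 and 0.69 in siSETD2 cells and 0.31 and 0.58 in siNT cells. Without the block 2 rose, ATF3 and PPM1D, and with it 10 rose and 0 fell, against 0.848% of all genes higher. Earlier results of these data had already picked ATF3 as an HU responder, so its call is no separate support for the list. Scaled to library totals, or with voom, 0 of the list were called, and ATF3 and PPM1D had adjusted p-values of 0.0522 to 0.115 there. The block over all 8 groups called 2 and the block in the 8 libraries alone 1, PPM1D, and without untreated siSETD2 R1 the block called 16. PPM1D, the phosphatase that switches the damage response off, stood at 13.4 and 13.6 FPKM in HU and 9.83 and 7.16 FPKM untreated in siSETD2 cells, against 17.2 and 15.8 FPKM in HU and 9.86 and 8.71 FPKM untreated in siNT cells, so each HU library lay above every untreated one. PPM1D averaged a response of 0.70 (SE 0.10, adjusted p = 0.0313) and its differences were -0.34 and 0.05. ATF3, a stress transcription factor, stood at 9.22 and 8.98 FPKM in HU and 6.23 and 3.77 FPKM untreated in siSETD2 cells, against 8.59 and 9.82 FPKM in HU and 5 and 4.07 FPKM untreated in siNT cells. ATF3 averaged a response of 0.83 (SE 0.12, adjusted p = 0.0313) and a difference of -0.10 (SE 0.21 with the block). CDKN1A, the p21 inhibitor of cyclin-dependent kinases, stood at 131 and 138 FPKM in HU and 124 and 52.2 FPKM untreated in siSETD2 cells, against 144 and 110.1 FPKM in HU and 88.1 and 47.8 FPKM untreated in siNT cells. Its untreated siSETD2 R1 library was near the HU libraries, and the averaged response of 0.84 (SE 0.19, adjusted p = 0.0607 with the block) was not called. FAS, a death receptor, BTG2, an antiproliferative factor, and PLK2, a polo-like kinase, rose by 0.77 (SE 0.15, adjusted p = 0.0351 with the block), 0.87 (SE 0.16, adjusted p = 0.0287 with the block) and 0.94 (SE 0.19, adjusted p = 0.0378 with the block). The repair factor XPC had responses of 0.55 and 0.51 in siSETD2 cells and 0.24 and 0.28 in siNT cells, and differences of 0.32 and 0.22. For the list the differences had medians of -0.19 and 0.10, of opposite sign. In both replicates 3 were above 0 (10%) and 6 below 0 (20%), against 23.8% and 25.9% of all genes.

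RSPO3 and ITPRIP also rose in HU averaged over siRNAs, and SLC25A27 fell. Scaled to library totals all 3 lost their call (adjusted p 0.0793 to 0.0936), and with voom RSPO3 did (0.0522). RSPO3, a secreted enhancer of Wnt signalling, stood at 7.13 and 4 FPKM in HU and 2.31 and 0.89 FPKM untreated in siSETD2 cells, against 3.97 and 3.88 FPKM in HU and 0.602 and 0.785 FPKM untreated in siNT cells, with all HU libraries above all untreated ones. RSPO3 averaged a response of 1.45 (SE 0.21, adjusted p = 0.0313) and its difference was -0.19 (SE 0.30 with the block). ITPRIP, a protein that binds the inositol trisphosphate receptor, stood at 51.7 and 50.4 FPKM in HU and 28.8 and 27.1 FPKM untreated in siSETD2 cells, against 47.1 and 50.1 FPKM in HU and 38.4 and 29.1 FPKM untreated in siNT cells. Its averaged response was 0.69 (SE 0.10, adjusted p = 0.0313) and its differences were 0.53 and 0.11. SLC25A27, a mitochondrial carrier, stood at 1.43 and 1.71 FPKM in HU and 3.01 and 3.61 FPKM untreated in siSETD2 cells, against 2 and 1.92 FPKM in HU and 2.71 and 3.26 FPKM untreated in siNT cells. Its averaged response was -0.59 (SE 0.08, adjusted p = 0.0303). Its differences of -0.42 and -0.22 were below 0 in both replicates, with an unadjusted block p of 0.0477 and an adjusted p of 1.

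S phase genes of the E2F list had medians above 0 in HU, at a like size in siNT R1, siNT R2 and siSETD2 R2 and near 0 in siSETD2 R1. The 74 tested genes (of 76) had median responses of 0.03 and 0.19 in siSETD2 cells and 0.22 and 0.24 in siNT cells. With HU averaged over siRNAs, 0 were called without the block, and 0 scaled to library totals or with voom. With the block 5 rose and 0 fell, CCNE2, CDC25A, ORC1, CDC7 and E2F7 (0.848% of all genes rose). The block over all 8 groups called 0 and the block in the 8 libraries alone 1, CCNE2, and without untreated siSETD2 R1 the block called 11 higher and 1 lower. CCNE2, a cyclin that drives S phase entry, stood at 1.83 and 3.52 FPKM in HU and 0.96 and 1.52 FPKM untreated in siSETD2 cells, against 2.08 and 3.07 FPKM in HU and 0.757 and 1.47 FPKM untreated in siNT cells. Its averaged response was 0.73 (SE 0.08, adjusted p = 0.00272 with the block). CDC25A, the phosphatase that activates CDK2, stood at 16.1 and 16.3 FPKM in HU and 14.1 and 11.4 FPKM untreated in siSETD2 cells, against 18.6 and 19.1 FPKM in HU and 14.2 and 12 FPKM untreated in siNT cells, so HU libraries lay above untreated ones for each siRNA. In HU it rose by 0.41 (SE 0.09, adjusted p = 0.0471 with the block) on average over siRNAs. The differences were -0.18 and -0.14, with an interval of the mean of -0.55 to 0.23. For the list, the difference of responses had medians of -0.18 and -0.02, with 6 above 0 and 31 below 0 in both replicates, 8.11% and 41.9% of the list against 23.8% and 25.9% of all genes. After removal of the length trend these medians were -0.08 and -0.03, with 9 above and 27 below. None of the 74 passed the test of the difference, and none had an unadjusted block p below 0.05, against 255 of all 13088 genes.

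GINS2, a subunit of the replicative helicase complex, was the E2F list member with the most repeatable difference on the lower side. It stood at 3.42 and 5.33 FPKM in HU and 4.34 and 5.19 FPKM untreated in siSETD2 cells, against 5.53 and 6.71 FPKM in HU and 4.18 and 5.44 FPKM untreated in siNT cells. HU was the higher by more than 1 FPKM in both siNT pairs and in no siSETD2 pair. Its differences were -0.61 and -0.22, its mean -0.42 (SE 0.22 with the block) and the interval -0.89 to 0.06. PCNA, the sliding clamp of DNA polymerases, stood at 101 and 136 FPKM in HU and 106 and 88.3 FPKM untreated in siSETD2 cells, against 119.6 and 141 FPKM in HU and 81.4 and 90.2 FPKM untreated in siNT cells. The R1 pair of siSETD2 was the only one in which HU was not the higher, and its differences were -0.61 and -0.02. E2F1 itself stood at 15 and 38 FPKM in HU and 14.6 and 25.2 FPKM untreated in siSETD2 cells, against 17.6 and 29.5 FPKM in HU and 12.5 and 20 FPKM untreated in siNT cells. Its differences were -0.42 and 0.04 with a mean of -0.19 (SE 0.22 with the block). E2F1, GINS2, PCNA and CDC25A carry the E2F letters printed above, and so does the mitotic gene CENPA. The helicase subunits MCM2 and MCM5 had differences of -0.06 and -0.0028 and of -0.02 and -0.0079, and the loading factor CDC6 of -0.36 and 0.14. CCNE1, a cyclin like CCNE2, had differences of -0.29 and -0.08, and the checkpoint kinases CHEK1 and WEE1 of -0.32 and -0.10 and of 0.12 and -0.01. On the higher side POLE, the leading strand polymerase, had 0.55 and 0.05, and CASP8AP2, which is needed for histone transcripts, 0.25 and 0.05.

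The E2F, DP and RB family itself had median responses of -0.0045 and -0.0084 in siSETD2 cells and 0.08 and 0.09 in siNT cells over 24 tested genes (of 26), so the medians were on opposite sides of 0 in both replicates. Medians over all genes were -0.03 and 0.04 in siSETD2 cells and 0.01 and 0.03 in siNT cells, so set against all genes siSETD2 R1 lay on the side of siNT. The family's differences had medians of -0.06 and 0.01. In both replicates 1 was above 0 (4.17%) and 7 below 0 (29.2%), against 23.8% and 25.9% of all genes. E2F7, a repressor that E2F induces in S phase, stood at 15.7 and 9.53 FPKM in HU and 12.4 and 7.02 FPKM untreated in siSETD2 cells, against 13.8 and 10 FPKM in HU and 11.1 and 6.92 FPKM untreated in siNT cells. It rose in HU, by 0.37 (SE 0.07, adjusted p = 0.036 with the block), and its differences were 0.03 and -0.08. The activator E2F3 had differences of -0.05 and 0.04 and the repressor E2F6 of 0.03 and 0.16. LIN9, a subunit of the MuvB complex, stood at 4.53 and 4.33 FPKM in HU and 4.33 and 4.16 FPKM untreated in siSETD2 cells, against 5.35 and 5.49 FPKM in HU and 4.39 and 4.51 FPKM untreated in siNT cells. Its differences were -0.18 and -0.19, and RBBP4, a histone chaperone of the same complex, had -0.30 and -0.16. None passed the test.

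**Figure D3:**
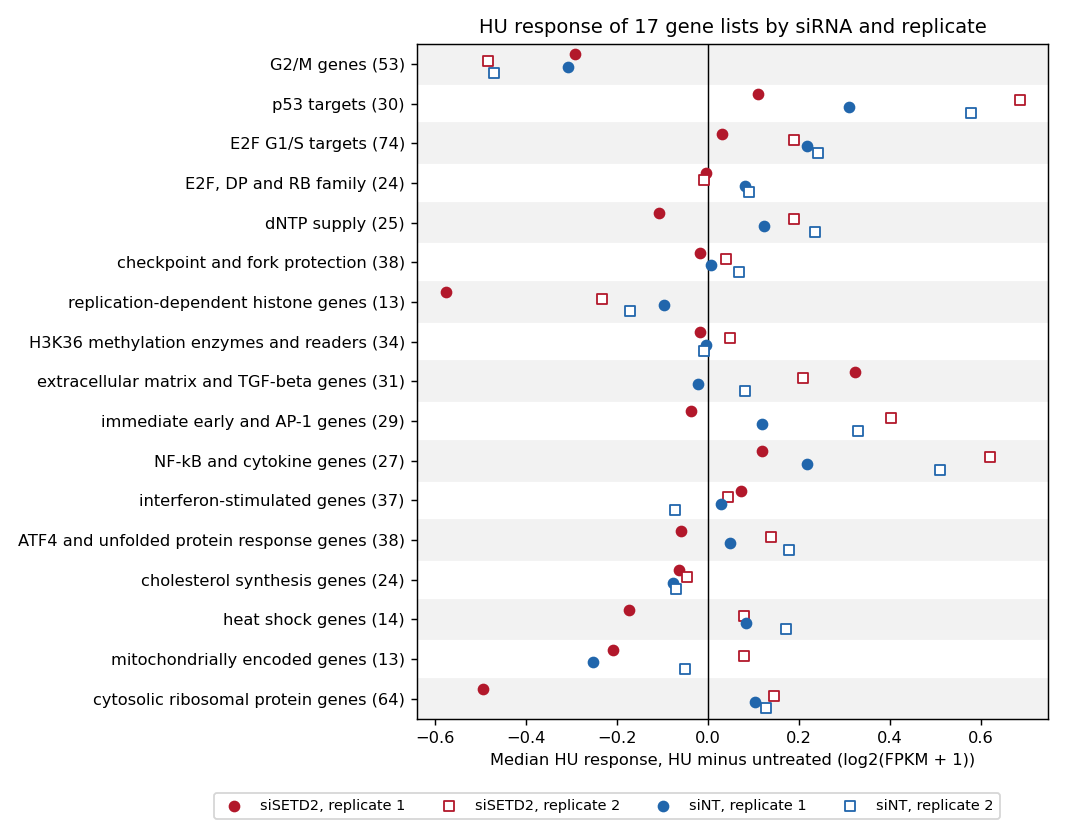
Median HU response on the log2(FPKM + 1) scale (x axis) of 17 gene lists (rows, genes tested in brackets), with siSETD2 in red and siNT in blue, R1 as filled circles and R2 as open squares. G2/M genes lie left of 0 and p53 targets right of 0 in all 4 series, while siSETD2 R1 lies left of the other 3 for ribosomal protein, histone and heat shock genes.

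The nucleotide supply genes, among them the target of HU, held no called gene. RRM2, the ribonucleotide reductase subunit that carries the radical HU removes, stood at 14.3 and 16.9 FPKM in HU and 15.6 and 12.2 FPKM untreated in siSETD2 cells, against 13.2 and 15.6 FPKM in HU and 9.66 and 10.7 FPKM untreated in siNT cells, so HU exceeded untreated in all pairs but siSETD2 R1. Its differences were -0.53 and -0.07, with an interval of the mean of -0.77 to 0.17. RRM1, the catalytic subunit, had differences of -0.21 and -0.10. NME1, a nucleoside diphosphate kinase, had -0.82 and -0.12, DGUOK, the mitochondrial deoxyguanosine kinase, -0.57 and -0.17, and SLC29A1, a nucleoside transporter, 0.37 and 0.09. The 25 genes of the list, all tested, had median responses of -0.11 and 0.19 in siSETD2 cells and 0.12 and 0.23 in siNT cells and differences of -0.24 and -0.03. Of the 25, 3 were above 0 (12%) and 14 below 0 (56%) in both replicates, against 23.8% and 25.9% of all genes. None passed in any HU contrast or in the difference.

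Checkpoint and fork protection genes (38 tested of 41) showed medians near 0 throughout. Their responses were -0.02 and 0.04 in siSETD2 cells and 0.0056 and 0.07 in siNT cells, and their differences were -0.0028 and -0.0017. In both replicates 10 were above 0 (26.3%) and 10 below 0 (26.3%), against 23.8% and 25.9% of all genes. In HU averaged over siRNAs, 0 were called without the block, scaled to library totals or with voom. With the block 3 rose, CDC25A, CDC7 and TIMELESS (0.848% of all genes rose). Both other blocks called 0, and without untreated siSETD2 R1 the block called 4 higher and 1 lower. RAD18, a ubiquitin ligase of damage tolerance, stood at 6.23 and 6.01 FPKM in HU and 5.27 and 4.89 FPKM untreated in siSETD2 cells, against 6.14 and 6.71 FPKM in HU and 6.42 and 6.06 FPKM untreated in siNT cells. Its differences were 0.26 and 0.13. H2AFX, the histone that is phosphorylated at breaks, had -0.44 and -0.15, and the lysine 36 demethylase KDM4A 0.13 and 0.09. Enzymes and readers of H3K36 methylation (34 tested of 35) had medians of 0.02 and 0.01. Of these enzymes and readers, 7 were above 0 (20.59%) and 6 below 0 (17.65%) in both replicates. Among them DNMT3A, the DNA methyltransferase that reads this mark, stood at 2.81 and 2.84 FPKM in HU and 2.51 and 2.73 FPKM untreated in siSETD2 cells, against 3.1 and 3.13 FPKM in HU and 3.69 and 3.61 FPKM untreated in siNT cells. Its differences were 0.31 and 0.20. ASH1L, a dimethylase of the same lysine, had 0.69 and 0.09, and SMYD2 and SETD3 had -0.17 and -0.09 and -0.28 and -0.06. None passed.

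Replication-dependent histone genes were tested for 13 of 56, the rest lying below the filter, and their near-identical copies make single values uncertain. Median responses were -0.58 and -0.23 in siSETD2 cells and -0.10 and -0.17 in siNT cells, and differences -0.46 and -0.0033, so the R1 difference was not seen in R2. HIST1H2BD stood at 6.69 and 4.18 FPKM in HU and 13.1 and 5.32 FPKM untreated in siSETD2 cells, against 10.2 and 4.52 FPKM in HU and 10.8 and 5.35 FPKM untreated in siNT cells. Its differences were -0.80 and -0.09, and HIST1H4H had -0.94 and -0.20. HIST1H4J went the other way, at 2.5 and 2.41 FPKM in HU and 1.59 and 1.264 FPKM untreated in siSETD2 cells, against 0.61 and 0.717 FPKM in HU and 1.78 and 0.78 FPKM untreated in siNT cells. Its differences were 1.23 and 0.64. The 3 had unadjusted block p-values of 0.0403, 0.0282 and 0.0278, and none passed after adjustment. The 3 were named for these same differences, so the p-values are no separate support. Of the 13 tested, 3 lay below 0.05, against 255 of all 13088 genes. They went in opposite directions, and the list was not tested as a set.

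Genes of the extracellular matrix and TGF-beta signalling formed the list with the largest share on the higher side in both replicates among the 17. The 31 tested genes (of 36) had median responses of 0.32 and 0.21 in siSETD2 cells and -0.02 and 0.08 in siNT cells. Differences had medians of 0.34 and 0.09, with 24 above 0 and 1 below 0 in both replicates, 77.4% and 3.23% of the list against 23.8% and 25.9% of all genes. Scaled to library totals these counts were 19 and 1. The list's genes are long, with a median exon length of 7810 bases against 4314 over all genes tested, and with the length trend removed the medians were 0.31 and 0.10, with 23 above and 0 below. No member passed the test, with or without the block, and 5 of the 31 had an unadjusted block p below 0.05, against 255 of all 13088 genes. The matrix list was not tested as a set.

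COL6A1, a chain of type VI collagen, stood at 85.2 and 109 FPKM in HU and 74 and 85.7 FPKM untreated in siSETD2 cells, against 81.3 and 86.3 FPKM in HU and 95.6 and 87.3 FPKM untreated in siNT cells. HU was the higher in both siSETD2 pairs and the lower in both siNT pairs. Its differences were 0.43 and 0.36, its mean 0.40 (SE 0.22 with the block) and the interval -0.10 to 0.89. COL5A2, a chain of type V collagen, stood at 2.41 and 5.27 FPKM in HU and 1.98 and 5.78 FPKM untreated in siSETD2 cells, against 3.53 and 5.85 FPKM in HU and 4.38 and 8.59 FPKM untreated in siNT cells, with every R2 library above every R1 library. Its differences were 0.44 and 0.37, with an unadjusted block p of 0.0388. COL6A3 had differences of 0.75 and 0.30, and the basement membrane collagens COL4A1 and COL4A2 had 0.54 and 0.30 and 0.60 and 0.26. COL1A1, the main bone collagen, stood at 9.59 and 39 FPKM in HU and 7.47 and 32.3 FPKM untreated in siSETD2 cells, against 13 and 34.1 FPKM in HU and 13.2 and 32.2 FPKM untreated in siNT cells. Its differences were 0.34 and 0.18. FN1 (fibronectin) and TNC (tenascin C) had differences of size in R1 only, 0.77 and 0.0033 and 0.97 and 0.09. THBS1, which helps to activate latent TGF-beta, was the one list member called for HU with the block, and 0 were called without it. THBS1 averaged 0.58 (SE 0.12, adjusted p = 0.0367 with the block), and its differences were 0.28 and 0.04. TGFB1, the ligand, was the one member below 0 in both, at -0.12 and -0.04, and the receptor TGFBR2 had 0.25 and -0.17.

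**Figure D4:**
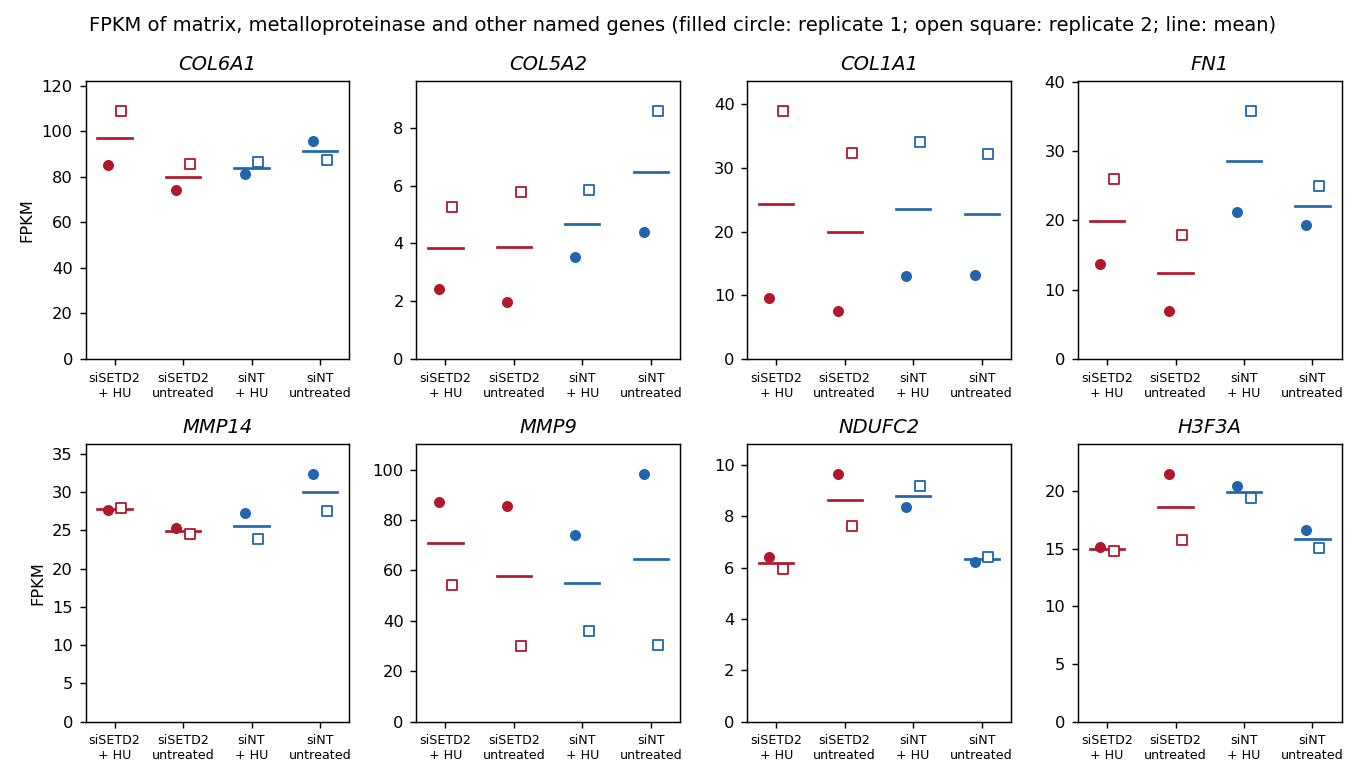
FPKM (y axis, from 0) of 8 genes in siSETD2 cells in HU, untreated siSETD2 cells, siNT cells in HU and untreated siNT cells (x axis), with R1 as filled circles, R2 as open squares and lines at group means. COL6A1 and MMP14 are higher in HU in siSETD2 cells and lower in HU in siNT cells, NDUFC2 has the opposite pattern, and COL1A1 differs more between R1 and R2 than between treatments.

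**Figure D5:**
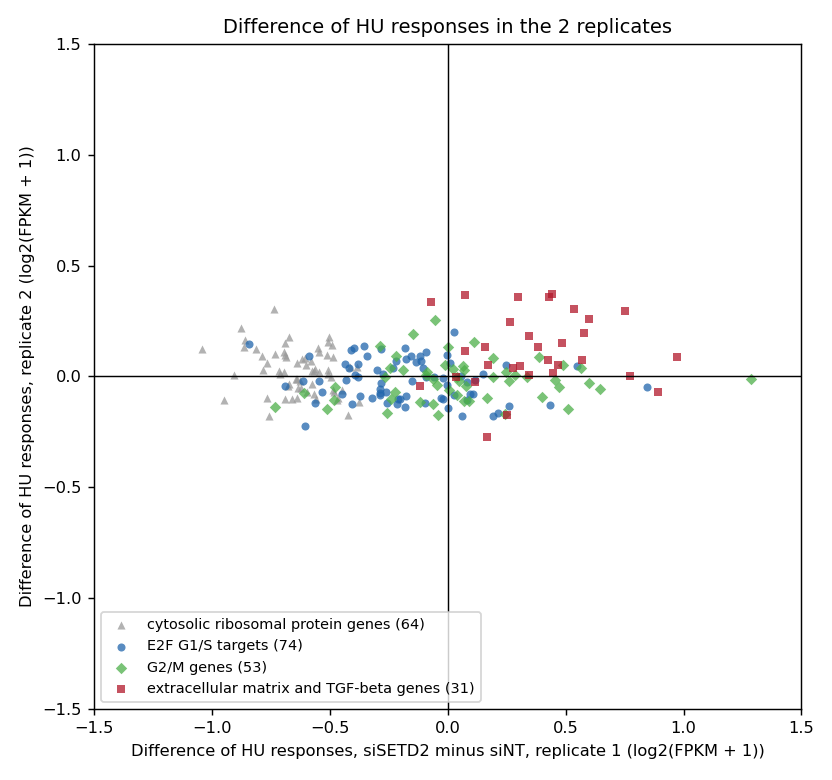
Difference of HU responses, siSETD2 minus siNT, on the log2(FPKM + 1) scale in R1 (x axis) and R2 (y axis) for ribosomal protein, E2F G1/S, G2/M and matrix genes, 1 point a gene. Points spread from -1.04 to 1.29 in R1 and from -0.27 to 0.37 in R2, and matrix genes lie mainly at the upper right.

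Inflammatory genes had medians above 0 in HU in all 4 series, and immediate early genes in all but siSETD2 R1, with larger values in R2 than in R1. NF-kB and cytokine genes (27 tested of 34) had median responses of 0.12 and 0.62 in siSETD2 cells and 0.22 and 0.51 in siNT cells. For the averaged response 0 were called without the block or with voom, and 1, TNFAIP3, scaled to library totals. With the block 6 rose (0.848% of all genes). Each of the other blocks called 2, and without untreated siSETD2 R1 the block called 15. CXCL8, a neutrophil chemokine, stood at 47.2 and 38.6 FPKM in HU and 35.2 and 7.57 FPKM untreated in siSETD2 cells, against 52.8 and 52.1 FPKM in HU and 23.8 and 13 FPKM untreated in siNT cells. TNFAIP3, an inhibitor of NF-kB signalling, stood at 14.7 and 19.2 FPKM in HU and 8.4 and 6.73 FPKM untreated in siSETD2 cells, against 9.95 and 15.1 FPKM in HU and 6.74 and 5.81 FPKM untreated in siNT cells. For both, HU was the higher in all 4 pairs. Their averaged responses were 1.42 (SE 0.31, adjusted p = 0.0496 with the block) and 0.97 (SE 0.15, adjusted p = 0.012 with the block). IL6, an inflammatory cytokine, stood at 0.939 and 3.69 FPKM in HU and 0.61 and 1.61 FPKM untreated in siSETD2 cells, against 1.65 and 4.41 FPKM in HU and 0.362 and 1.69 FPKM untreated in siNT cells. IL6 rose in HU, by 0.77 (SE 0.09, adjusted p = 0.00272 with the block), and its differences were -0.69 and -0.17, with an unadjusted block p of 0.0357. CCL5, a chemokine, had differences of 0.27 and 0.67. The list's differences had medians of -0.21 and 0.13, of opposite sign. For immediate early genes (29 tested of 38) responses were -0.04 and 0.40 in siSETD2 cells and 0.12 and 0.33 in siNT cells and differences -0.20 and 0.02. In both replicates 7 were above 0 (24.1%) and 11 below 0 (37.9%), against 23.8% and 25.9% of all genes. NR4A2, an orphan nuclear receptor, stood at 2.85 and 4.65 FPKM in HU and 1.47 and 2.22 FPKM untreated in siSETD2 cells, against 3.25 and 5.29 FPKM in HU and 1.25 and 2.19 FPKM untreated in siNT cells. It rose in HU, by 0.84 (SE 0.09, adjusted p = 0.002 with the block), and was not called without the block. Its differences were -0.28 and -0.17, and those of JUN, a subunit of AP-1, 0.29 and 0.12.

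Interferon-stimulated genes (37 tested of 46) had small responses, 0.07 and 0.04 in siSETD2 cells and 0.03 and -0.07 in siNT cells. Differences had medians of 0.05 and 0.14. In both replicates 17 were above 0 and 5 below 0, 45.9% and 13.5% of the list against 23.8% and 25.9% of all genes. SAMD9, an antiviral protein, stood at 1.5 and 0.759 FPKM in HU and 0.944 and 0.808 FPKM untreated in siSETD2 cells, against 1.17 and 0.786 FPKM in HU and 1.44 and 1.3 FPKM untreated in siNT cells. Its differences were 0.53 and 0.32. CXCL10, a T cell chemokine, stood at 0.508 and 0.599 FPKM in HU and 0.235 and 0.301 FPKM untreated in siSETD2 cells, against 0.226 and 0.325 FPKM in HU and 0.318 and 0.354 FPKM untreated in siNT cells, with differences of 0.39 and 0.33. Every one of these CXCL10 values lay below 1 FPKM, the level of the filter. CXCL10 thus passed the filter only through libraries given the ATR inhibitor, which are not compared here. Its differences rest on low values. IFI35 had -0.39 and -0.12 and IFIT5 -0.30 and -0.14. None passed, and IRF1, a transcription factor of the list, rose in HU, by 0.52 (SE 0.10, adjusted p = 0.0287 with the block). Without the block 0 of the list were called for the averaged response.

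Heat shock and ATF4 lists had medians below 0 for the difference in both replicates, and ribosomal protein genes in R1 only. Of 14 tested heat shock genes (of 16), 12 were below 0 in both replicates (85.7%) and 1 above (7.14%), against 25.9% and 23.8% of all genes. Their medians were -0.35 and -0.07, and -0.20 and -0.08 with the length trend removed. HSPA1B, an inducible HSP70, stood at 19.5 and 12.2 FPKM in HU and 22.1 and 13.3 FPKM untreated in siSETD2 cells, against 17.3 and 12.9 FPKM in HU and 17.2 and 10.6 FPKM untreated in siNT cells. Its differences were -0.18 and -0.39, and HSPH1, a co-chaperone, had -0.17 and -0.26. SERPINH1, the collagen chaperone, was the member above 0, at 0.26 and 0.06. ATF4 and unfolded protein response genes (38 tested of 39) had differences of -0.18 and -0.07. Of them, 5 were above 0 (13.2%) and 18 below 0 (47.4%) in both replicates, against 23.8% and 25.9% of all genes. HERPUD1, an endoplasmic reticulum stress protein, stood at 21.6 and 18.6 FPKM in HU and 20.5 and 19.6 FPKM untreated in siSETD2 cells, against 23.7 and 23.5 FPKM in HU and 18.9 and 17.7 FPKM untreated in siNT cells, so HU and untreated libraries separated in siNT cells and not in siSETD2 cells. Its differences were -0.25 and -0.46, with an unadjusted block p of 0.0537. DNAJB9, a chaperone of the same compartment, had -0.31 and -0.40, and the cystine transporter SLC7A11 0.47 and 0.11. Cytosolic ribosomal protein genes (64 of 64) had differences of -0.62 and 0.03, so R1 alone carried the shift. In both replicates 0 were above 0 and 25 below 0 (39.1%), against 23.8% and 25.9% of all genes. Shared reads with pseudogenes add to their uncertainty. No gene of these 3 lists passed the test of the difference.

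Cholesterol synthesis genes (24 tested of 25) had differences of 0.07 and 0.06. Of them, 8 were above 0 (33.3%) and 4 below 0 (16.7%) in both replicates, against 23.8% and 25.9% of all genes. MSMO1, a sterol methyl oxidase of the pathway, had differences of 0.26 and 0.24. The 13 mitochondrially encoded genes had medians of 0.10 and 0.11, with 8 above 0 (61.5%) and 1 below 0 (7.69%) in both replicates. MT-ND4L, a complex I subunit whose gene overlaps MT-ND4, stood at 7193 and 11710 FPKM in HU and 4192 and 10950 FPKM untreated in siSETD2 cells, against 8450 and 10740 FPKM in HU and 8867 and 13440 FPKM untreated in siNT cells. Its differences were 0.85 and 0.42. MT-ATP8, an ATP synthase subunit whose gene overlaps MT-ATP6, had 0.46 and 1.05. MT-ND3 went the other way, at -0.70 and -0.32.

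Differences of at least 0.5 in the same direction in both replicates were found for 102 genes on the higher side (0.779%) and 44 on the lower (0.336%), while 144 (1.1%) reached 0.5 in opposite directions. Of these 146, 7 were protein-coding, of 10665 tested, and their median exon length was 143.5 bases against 4314 over all genes. The 24 with the most repeatable differences were all non-coding, 58 to 452 bases long, with 0 to 55 fragments a library. RNU7-75P, a U7 small nuclear RNA pseudogene of 62 bases (chr5:37327135-37327196) inside NUP155 on the other strand, stood at 1.21 and 2.52 FPKM in HU and 3.82 and 5.07 FPKM untreated in siSETD2 cells, against 4.28 and 4.31 FPKM in HU and 2.01 and 2.68 FPKM untreated in siNT cells. Its HU libraries were the lower in siSETD2 cells and the higher in siNT cells, with differences of -1.94 and -1.31 and an adjusted p of 0.089 with the block. It rests on 2 to 8 fragments a library. MIR4261 had differences of 1.95 and 2.22, AL021068.2 of 2.40 and 1.44 and MIR4256 of 2.51 and 1.29. On the lower side RPL39P40, a ribosomal protein pseudogene, had -1.5 and -1.56 and RNU6-1048P -1.36 and -1.55.

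Since the repeatable differences fell on such short genes, protein-coding genes averaging 5 FPKM or more were ranked by the same rule, a choice made after the values were seen and given without a test. NDUFC2, an accessory subunit of mitochondrial complex I, led on the lower side. It stood at 6.41 and 5.95 FPKM in HU and 9.67 and 7.63 FPKM untreated in siSETD2 cells, against 8.38 and 9.19 FPKM in HU and 6.23 and 6.43 FPKM untreated in siNT cells. HU was the lower in both siSETD2 pairs and the higher in both siNT pairs, with responses of -0.53 and -0.31 in siSETD2 cells and 0.38 and 0.46 in siNT cells. Its differences were -0.90 and -0.77, with an SE of the mean of 0.22 with the block. H3F3A, which encodes the replacement histone H3.3 and has near-identical processed copies, stood at 15.1 and 14.8 FPKM in HU and 21.5 and 15.8 FPKM untreated in siSETD2 cells, against 20.4 and 19.3 FPKM in HU and 16.6 and 15.1 FPKM untreated in siNT cells. The siNT libraries in HU were above both untreated siNT libraries, and its differences were -0.77 and -0.43. HOXB7, a homeobox transcription factor, had -0.74 and -0.33, COQ2, an enzyme of ubiquinone synthesis, -0.50 and -0.43, and GMFG, an actin regulator, -0.58 and -0.33. ZNF404, a zinc finger protein, fell in HU averaged over siRNAs, with a response of -0.46 (SE 0.06, adjusted p = 0.00536 with the block), and was not called without the block. Its separate responses were -0.56 and -0.74 in siSETD2 cells and -0.22 and -0.33 in siNT cells. PHLDA2, UCN, COMMD8, TMEM158, SMCO4 and CHAC2 made up the 12, with mean differences of -0.36 to -0.59.

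On the higher side 3 matrix metalloproteinases were among the 12. MMP14, a membrane-bound protease that cleaves collagen, stood at 27.7 and 27.9 FPKM in HU and 25.3 and 24.5 FPKM untreated in siSETD2 cells, against 27.2 and 23.8 FPKM in HU and 32.4 and 27.5 FPKM untreated in siNT cells. HU was the higher in both siSETD2 pairs and the lower in both siNT pairs, and its differences were 0.37 and 0.38. MMP15, a relative of MMP14, had 0.45 and 0.38. MMP9, a secreted gelatinase, stood at 87.3 and 54.4 FPKM in HU and 85.6 and 30.1 FPKM untreated in siSETD2 cells, against 74.1 and 35.8 FPKM in HU and 98.4 and 30.4 FPKM untreated in siNT cells, with R1 libraries above R2 libraries in all groups and differences of 0.43 and 0.61. BMP4, a bone-inducing ligand, stood at 4.01 and 4.52 FPKM in HU and 3.38 and 5.43 FPKM untreated in siSETD2 cells, against 2.19 and 3.41 FPKM in HU and 2.86 and 7.5 FPKM untreated in siNT cells. Its differences were 0.47 and 0.73. EREG, a ligand of the EGF receptor, had responses of 0.49 and 0.74 in siSETD2 cells and 0.13 and 0.33 in siNT cells, above 0 in all pairs, and differences of 0.37 and 0.40. OPLAH, RELL2 and CCDC188 had 0.45 and 0.38, 0.55 and 0.34 and 0.54 and 0.65, and COL6A1, COL5A2, MT-ND4L and MT-ATP8, given above, completed the 12.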

How the data were processed

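FPKM values for 58735 genes and 16 libraries were deposited by the authors as 1 table. Per the submitters' processing notes the tools were STAR 2.6.1d and featureCounts 1.5.0-p3 on hg38. The sources used here state neither their settings nor whether strand was used, so overlapping genes on opposite strands cannot be told apart. All 58735 identifiers occur in GENCODE 29, and FPKM times merged exon length gave whole fragments within 0.01 for 100% of values above 0.

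The test was limma 3.58.1 (R 4.3.3) on log2(FPKM + 1), with 1 mean for each of 8 groups over 16 libraries and Benjamini-Hochberg adjustment over 13088 genes at 0.05. This scale understates changes of low genes. Scripts were tested on simulated data. R1 minus R2 correlated across genes at 0.363 to 0.746 between the 6 groups other than VE-822 alone, so the numbers were taken to pair these libraries, from the data and not from the labels. The block is a term for the replicate number in these 6 groups, and it leaves fold changes as they are. Intervals are 95% and use the block.

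Named genes were the 12 in each direction with the largest smaller difference of R1 and R2, up to 12 called for HU, a set of cell cycle genes, and up to 2 a direction in each list. Where a list holds others, they were named after their values were seen. Members and lists were chosen with earlier results of these data known. Alternatives were pseudocounts, filters, scalings, fewer libraries, blocks, robust estimation, limma-voom and a length correction.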

Additional observations from a re-analysis of the deposited data

Results flagged for a closer look

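The E2F, DP and RB family had median HU responses of -0.0045 (R1) and -0.0084 (R2) in siSETD2 cells and of 0.08 (R1) and 0.09 (R2) in siNT cells. It was picked out because both siSETD2 medians lay on the other side of 0 from both siNT medians. Set against the median of all genes, which was -0.03 in siSETD2 R1, that library pair lay on the side of siNT. The median difference of responses was -0.06 in R1, 0.01 in R2 and -0.0499 for the mean of both, on the log2(FPKM + 1) scale. Whether the responses of the list differ was not tested, and 0 of its 24 genes passed the test of the difference. Groups of 2 libraries are too small for a test of an outlying value within a group.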

How the results depend on the processing

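The count of genes called for the difference of responses stayed at 0 under a pseudocount of 0.1, a filter at 5 FPKM, both scalings, robust estimation, limma-voom, every replicate block and, chosen after seeing the data, removal of the length trend. Without a filter it was 31, none of which reached 1 FPKM. Leaving out 1 library gave 0 to 189, chiefly through the loss of untreated siSETD2 R2, which left siSETD2 R1 as the lone untreated siSETD2 library, assumed to vary like the other groups. That gave 3 calls without the block and 189 with it, 130 higher (median exon length 7496 bases) and 59 lower (2274 bases), and without siNT HU R2 the block gave 1.

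In siSETD2 cells HU calls numbered 19 unfiltered, 26 with the replicate block, 1 with it over all 8 groups, 0 with it in the 8 libraries alone, 24 with length removed too, and 0 to 730 without 1 library. In siNT cells they numbered 19 unfiltered, 22 with the block, 0 with it over all 8 groups or in the 8 libraries alone, 22 with length removed too, and 0 to 49 without 1 library. Averaged over siRNAs the 14 calls became 46 unfiltered, 8 scaled to totals and 8 with voom (1 higher and 7 lower each), 0 in the 8 libraries alone, 209 with the replicate block, 45 with the block over all groups, 32 with the block in 8 libraries, 252 with length removed too, and 0 to 637 without 1 library. Both highest counts came without an untreated siSETD2 library, 730 without R2 and 637 without R1. The cause of these changes was not tested.

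The E2F G1/S median of -0.09 ranged from -0.28 to 0.0671 without 1 library, and other alternatives kept it below 0. The 146 genes past 0.5 in both replicates became 293 with a pseudocount of 0.1, 374 unfiltered and 17 above 5 FPKM. Of 141 named genes, 62 changed the sign of the difference under some alternative, 4 when all libraries were kept, and 9 were called under some alternative.

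Only 2 libraries a group, and a library that stands apart, limit what these data can show. Short genes rest on few fragments.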
